A study of Mus musculus with 2 samples.

Results

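Intronic Sox4 peaks are the enriched regions that the deposited peak list places in an intron of their closest gene. They numbered 841 of 8730 peaks (9.63%, exact Clopper-Pearson 95% interval 9.02 to 10.3%). Members were chosen by the deposited position class alone, not by any measured value. The peaks come from 1 pull-down library of C57BL/6 mouse progenitor B cells of embryonic fetal liver. Retroviruses had brought in, in this order, the biotin ligase BirA, the oncogene p190 Bcr-Abl, SE-Cre and BAP-tagged Sox4, with sorting at every step. The cells were thus immortalized, and the Sox4 that was pulled down on streptavidin beads was a tagged protein made from a retrovirus. In the labels, SOX4 stands as the antibody. The same cells gave 1 input chromatin library, whose own file was not used here. No pull-down from cells without tagged Sox4 was analysed here, so binding of Sox4 is not shown by a peak alone.

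Sox4 belongs to the SOX family, whose HMG box binds the minor groove of DNA at short AT-rich sites and bends it. Sox4 is known as a factor needed early in B-cell development. Introns, and above all the first introns of long genes, hold many enhancers, which are short stretches where several transcription factors bind and act on a promoter at a distance. Which gene such a stretch acts on cannot be read from the gene it lies in. The gene named here is therefore only the host, the gene whose intron holds the peak.

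The genome sequence of the intronic peaks themselves was not analysed here. For 3 host genes the 250 bases before the annotated start are shown instead, as the nearest regulatory sequence in hand (RefSeq, GRCm38.p6, 5′ to 3′ on the gene's strand, minus in each case). They are the host of the highest-scoring intronic peak, Ftx (chrX:103623755-103624004), the host with most intronic peaks, Maml3 (chr3:52105007-52105256), and Rag1 (chr2:101649533-101649782), which the title of the series names. Capitals mark ACAAAG or its reverse complement CTTTGT, a core that SOX factors are known to bind.
Ftx: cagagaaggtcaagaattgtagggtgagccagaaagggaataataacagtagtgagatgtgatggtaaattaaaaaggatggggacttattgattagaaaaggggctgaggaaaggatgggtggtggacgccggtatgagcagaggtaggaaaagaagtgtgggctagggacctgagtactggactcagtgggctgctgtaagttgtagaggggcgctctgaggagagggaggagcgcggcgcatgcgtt
Maml3: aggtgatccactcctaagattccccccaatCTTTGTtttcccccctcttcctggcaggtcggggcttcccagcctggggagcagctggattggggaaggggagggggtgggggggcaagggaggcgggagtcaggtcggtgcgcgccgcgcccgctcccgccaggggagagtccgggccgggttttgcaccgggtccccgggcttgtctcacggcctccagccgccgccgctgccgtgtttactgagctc
Rag1: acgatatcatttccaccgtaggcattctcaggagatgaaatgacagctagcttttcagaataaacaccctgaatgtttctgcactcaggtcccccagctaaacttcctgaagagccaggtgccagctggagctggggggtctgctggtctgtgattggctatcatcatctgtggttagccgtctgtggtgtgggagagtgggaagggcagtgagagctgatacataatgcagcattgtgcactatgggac
The core occurred once in the Maml3 sequence, beginning 220 bases before the start, and in neither of the others. The Maml3 stretch held 18 CG dinucleotides, the Ftx stretch 7 and the Rag1 stretch 3. Promoter sequences were found for 534 of the 689 host genes, with 802 starts. On either strand ACAAAG occurred in 15.3% of these (12.9 to 18.0%) and in 16.5% of all 32851 starts of the table, which include them. The longer AACAAAG, which contains that core, occurred in 4.86% of host starts (3.48 to 6.59%) and in 5.03% of all. The host promoters thus held these letters about as often as promoters in general, which says nothing about the introns.

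The intronic peaks were narrow and mostly of modest strength, with a small set of strong ones. Each peak has a deposited tag number (reads in the peak, a plain count), a deposited fold (a linear ratio of observed to expected tags) and a deposited score (minus 10 log10 of p as MACS writes it, with 50 as the usual lower limit). All of these are the authors' values, from 1 library with no replicate, so they describe and rank peaks within this list. The median intronic peak was 785 bp wide (quartiles 697 and 928 bp) and held 59 tags (47 and 76). Its fold was 4.44 (quartiles 3.86 and 5.55) and its score 84.5 (62.4 and 130). Tags ran from 29 to 353, folds from 2.59 to 30.2 and scores from 50.04 to 2016. The lowest-scoring intronic peak lay in Inpp5d. The tag number followed the width closely (Spearman correlation 0.92 over 841 peaks). The fold followed the tag number less closely (0.39) and the width weakly (0.17).

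Against promoter peaks, intronic peaks had fewer tags and lower scores at the same median fold. The 6171 promoter peaks had a median of 77 tags, a width of 980 bp, a score of 117 and a fold of 4.44. This was not particular to introns, since the other classes outside promoters had median tags of 57 to 59 and median scores of 73.8 to 85.5. Per kb of width the gap in tags was smaller, with a median of 71.8 tags in introns and 77.6 at promoters. Folds of at least 5 were found for 35.3% of intronic peaks (32.1 to 38.7%), 34.6% of promoter peaks (33.4 to 35.8%) and 33.8% of peaks of any class. The share was 21.8% in exons (17.1 to 27.0%), 27.5% at transcript ends, 28.4% downstream, 28.9% upstream and 38.0% for peaks with no gene listed. Folds of at least 10 were found for 48 intronic peaks (5.71%, 4.24 to 7.50%), against 4.39% of peaks of any class. In the other classes this share ran from 2.81% in exons to 6.57% of peaks with no gene listed. Intervals cover counting error only, and peaks are not replicates, so no p-value was computed between classes.

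**Figure D1:**
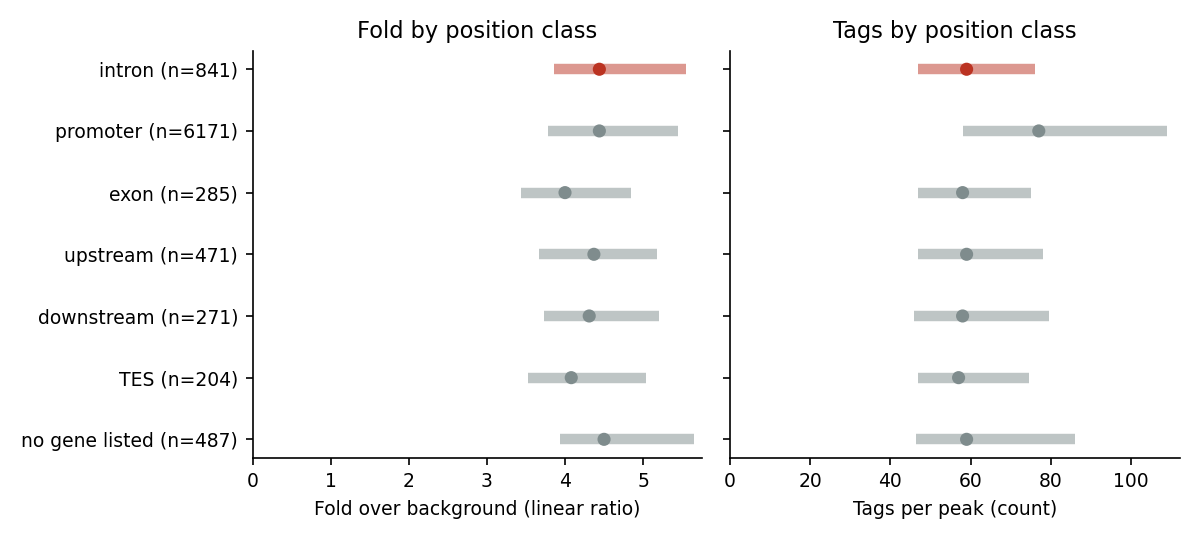
Median (point) and quartiles (bar) of the deposited fold and of the tag number for each position class, with intronic peaks in red and n peaks beside each name. The intronic median fold equals that of promoter peaks at 4.44, whereas the median tag number is 59 in introns and 77 at promoters.

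The 48 intronic peaks of fold 10 or more each lay in a different gene. They held a median of 150 tags (84 to 353) in 1002 bp, or 151 tags per kb, and a median score of 566. The other 793 held a median of 57 tags in 770 bp, or 71.0 tags per kb. None of the 10 highest peaks of the whole list was intronic, by fold or by score. Among the 100 with the highest fold, 13 were intronic, and among the 100 with the highest score, 9. Hosts of strong peaks were annotated by a noncoding (NR) transcript in 5 of 48 cases (10.4%, 3.47 to 22.7%). Over all intronic peaks this was 31 of 841 (3.69%, 2.52 to 5.19%), and over all peaks with a closest gene it was 497 of 8243 (6.03%, 5.53 to 6.57%).

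The highest score and the highest fold belonged to the same peak, in Ftx, the gene of a long noncoding RNA of the X-inactivation centre (mm9 chrX:100811917-100813253, 5840 bp inside the gene). It held 336 tags (exact Poisson 95% interval 301 to 374) and had a fold of 30.2. Its score of 2016 was number 25 among all 8730 peaks. A further Ftx peak lay 1008 bp inside the gene, with 62 tags (47.5 to 79.5) and a fold of 4.16. No peak lay within 500 bp of the Ftx start. Chromosome X held 10 intronic peaks among its 92 (10.9%, 5.34 to 19.1%), close to the share in the whole list.

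Next by score came a peak deep inside Auts2, which encodes a partner of Polycomb complexes known from neurodevelopment. It lay 1003 kb from the start of a transcript of 1105 kb (mm9 chr5:132012851-132014952), with 350 tags (314 to 389) and a fold of 20.6. The nearest other peak was 1281 kb away, so this was an isolated site. Chd2, which encodes a chromatin remodeller, had a peak of 273 tags (242 to 307) and fold 27.6 lying 3142 bp inside the gene (mm9 chr7:80682329-80683490). Nr6a1, an orphan nuclear receptor gene, had 353 tags (317 to 392) at a fold of 22.4, 102 kb from the start (mm9 chr2:38678332-38680223). A weaker Nr6a1 peak stood 0.277 kb away with 37 tags and a fold of 3.91.

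The other hosts of the strongest intronic peaks were of mixed function. Ppp2r5c encodes a regulatory subunit of the phosphatase PP2A, and its peak 13.0 kb inside the gene had 299 tags (266 to 335) and a fold of 24.2. Pias4, encoding a SUMO ligase, had 287 tags (255 to 322) and a fold of 28.2, the second highest, 4966 bp inside. The peak of Ptk2b, which encodes the focal adhesion kinase relative PYK2, had 220 tags (192 to 251) and a fold of 26.1. Snx9, an endocytic adaptor gene, had 226 tags (197 to 257) and a fold of 22.2. Zc3h4, a zinc finger gene, had 243 tags at a fold of 18.9, 1695 bp inside the gene. The centrosome gene Cep68 had 186 tags and a fold of 27.3, at 80.8% of the length of its transcript. Cnksr3, a signalling scaffold gene, had 196 tags at a fold of 23.4, and the noncoding gene Gm20758 had 194 tags at a fold of 21.5. By score, these 8 peaks ranked from 50 (Ppp2r5c) to 126 (Gm20758) among all 8730.

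Intronic peaks lay at every distance from the start, more often in the 5′ part of the host transcript. The nearest was 508 bp and the farthest 1168 kb from the start of the host transcript, with a median of 17.0 kb (quartiles 4.22 and 56.0 kb). The deposited promoter class ends 490 bp inside a gene, so peaks closer than that could not be intronic. Of the 841 peaks, 326 (38.8%, 35.5 to 42.2%) were within 10 kb of the start, 65 (7.73%) within 1 kb, and 123 (14.6%, 12.3 to 17.2%) more than 100 kb away. Measured along the transcript, the first 25% held 356 peaks (42.3%, 39.0 to 45.8%) and the next 25% held 240 (28.5%). The stretch from 50% to 75% held 155 (18.4%) and the last 25% held 90 (10.7%, 8.69 to 13.0%). Only 24 peaks had a listed downstream start of the same gene, and 3 of them, in Mpped2, Sin3a and Ang, lay within 5 kb upstream of it.

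The median fold varied little with distance. It lay between 4.29 (5 to 10 kb from the start) and 4.62 (within 1 kb) in all 9 distance classes, and across peaks the fold and the distance had a Spearman correlation of 0.048. The median tag number was 50 at 100 to 250 kb and 64 at 1 to 2 kb (Spearman correlation of tags and distance -0.13). The strong peaks were spread likewise: 20 of 48 (41.7%, 27.6 to 56.8%) lay within 10 kb of the start. Within 1 kb there was 1 strong peak among 65 (1.54%, 0.0389 to 8.28%), and beyond 250 kb there were 4 among 32 (12.5%, 3.51 to 29.0%).

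**Figure D2:**
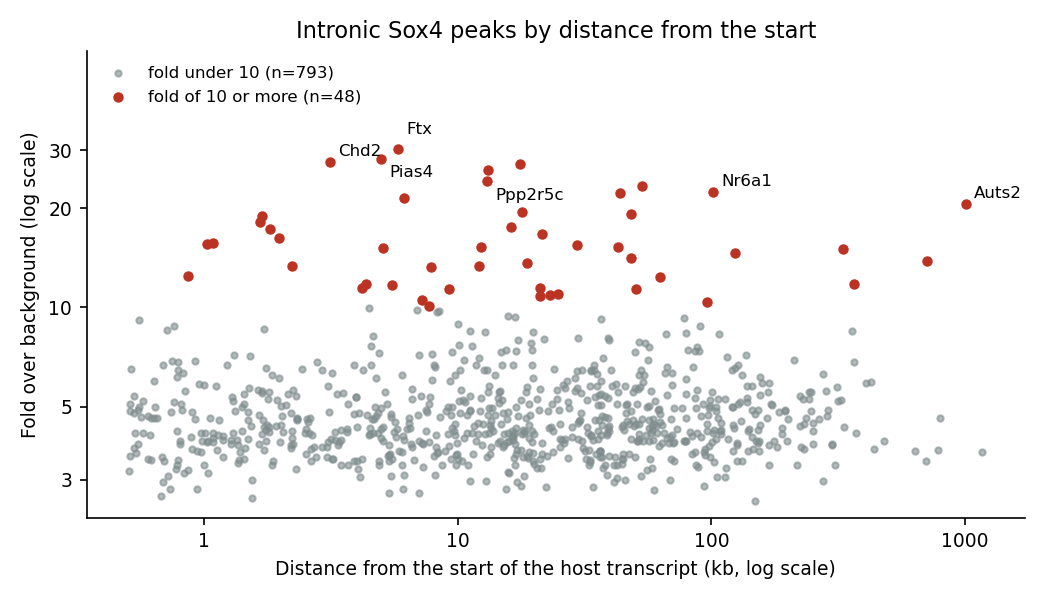
Each point is 1 of the 841 intronic peaks, placed by its distance in kb from the start of the host transcript (log scale) and its deposited fold (log scale). The 48 peaks of fold 10 or more, in red, are spread from under 1 kb to about 1003 kb, and the 6 highest scores are named.

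The peaks next to the promoter class lay in Cdc42se1 (508 bp inside), Rag1 (510 bp), Celf6 (511 bp), Eif4ebp1 (512 bp) and Eif4a1 (518 bp). Their folds were 3.18, 5.11, 3.54, 4.85 and 6.50. Rag1 encodes a subunit of the V(D)J recombinase, and Eif4ebp1 and Eif4a1 encode proteins of translation initiation. The Rag1 peak held 57 tags and ranked 323 among intronic peaks by score. Neither Rag2, Csnk1e nor Sox4 hosted an intronic peak. The peaks farthest from the start lay in Pde4d, a phosphodiesterase gene (1168 kb, fold 3.64), in Auts2, in Wwox (794 kb, fold 4.62), in 1700112E06Rik (781 kb, fold 3.70) and in Fhit (708 kb, fold 13.8). Wwox and Fhit are tumour suppressor genes over common fragile sites. The Fhit peak held 162 tags (138 to 189), and no other peak lay within 2238 kb of it.

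Intronic peaks fell in 689 host genes, of which 663 were among the 20953 protein-coding genes of the gene table (3.16%). Hosts were long. Transcript lengths were taken from the distances in the deposited list, so they cover the 11188 genes with a peak in them or within 25 kb. The median length of hosts was 62.8 kb, and that of listed genes without an intronic peak was 16.4 kb. Of listed genes up to 10 kb long, 0.848% (0.581 to 1.19%) were hosts. The share was 5.55% (4.59 to 6.64%) at 25 to 50 kb, 11.2% (9.57 to 13.0%) at 50 to 100 kb and 36.0% (30.8 to 41.4%) above 200 kb. A host is listed through its own intronic peak, and genes without a nearby peak are left out. These are thus not shares of all genes of a length, and how much of the rise the listing builds in was not tested. Because hosts were long, the counts for gene lists below are given with the lengths of their members.

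**Figure D3:**
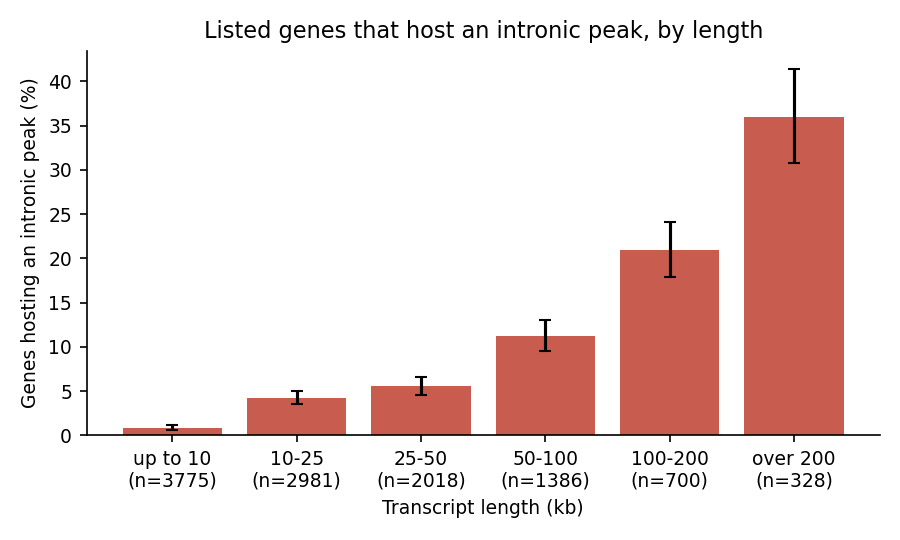
Percent of listed genes that host an intronic peak (bar) with exact 95% interval (line), by transcript length in kb, with n genes under each bar. The share rises from 0.848% at up to 10 kb to 36.0% above 200 kb. Listed genes are only those with a peak in them or within 25 kb, not all genes of a length.

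Most hosts had a single intronic peak. A pair or more was found in 108 of 689 (15.7%, 13.0 to 18.6%), and 3 or more in 27. Among all 841 peaks, 318 (37.8%) had another peak of any class under 10 kb away, against 25.8% of peaks of any class. The share was as high or higher in exonic peaks (42.8%), in peaks at transcript ends (42.2%) and upstream of genes (37.8%), and lower in promoter peaks (22.1%). The nearest peak was then a promoter peak in 168 cases and another intronic peak in 123, and it had the same closest gene in 291 of 318.

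Maml3 held the most intronic peaks, 7. It encodes a Mastermind coactivator, which joins the Notch receptor's intracellular part on DNA. The peak nearest the start, 1729 bp inside (mm9 chr3:51905570-51907199), had 196 tags (170 to 225) and a fold of 8.57. Going inwards, the peaks at 34.5, 96.9, 104 and 223 kb had 75, 59, 52 and 49 tags and folds of 6.67, 4.73, 4.98 and 5.39. The 2 deepest, at 359 and 365 kb, had 85 and 133 tags and folds of 8.49 and 11.8. Tags were thus highest at both ends of the series, and the deepest peak had the highest fold. A peak within 500 bp of the Maml3 start had 83 tags and a fold of 5.38.

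Rere, Cxxc5, Foxp1 and Cradd followed with 5 intronic peaks each. Rere encodes an atrophin-type corepressor, and its peaks stood in a pair at 89.5 and 90.6 kb, a single peak at 123 kb and a pair at 284 and 286 kb. Their tags were 145, 92, 39, 61 and 146 and their folds 7.37, 4.04, 4.32, 5.59 and 4.68. The 5 peaks of Cxxc5, a CXXC zinc finger gene of only 31.9 kb, had 64 to 98 tags and folds of 3.26 to 4.65. In Foxp1, a forkhead factor gene needed for B-cell development, 1 peak lay 1755 bp from the start of the nearest transcript with 103 tags and a fold of 6.55. The other Foxp1 peaks lay 45.8 to 139 kb from the start of a longer transcript, with 38 to 74 tags. Cradd, which encodes a death-domain adaptor, had peaks of 38 to 73 tags and folds of 3.58 to 4.28. Each of these 4 genes also had a peak within 500 bp of a start.

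About 50% of host genes had a peak at their start as well. A peak lay within 500 bp of a start in 351 of 689 hosts (50.9%, 47.1 to 54.7%). Among protein-coding hosts this was 51.9% (48.0 to 55.7%), against 29.7% of all protein-coding genes. Among listed genes, each of which has a peak in it or within 25 kb, the share was 59.4% at lengths of 10 to 25 kb, 71.0% at 50 to 100 kb and 59.1% above 200 kb. Hosts thus lay above all protein-coding genes, which were not matched for length, and below listed genes of these lengths. Many genes without an intronic peak are listed through a peak at their start, whereas hosts are listed through their intronic peak. The lower share of hosts is therefore partly built in by the listing, and no conclusion is drawn from it. Expression was not analysed here, and its part in these differences was not tested. The strength of intronic peaks in hosts with and without a peak at the start differed little in the medians. The 451 in hosts with one had a median fold of 4.52 and 60 tags, and 24 of them reached a fold of 10 (5.32%, 3.44 to 7.81%). The 390 in hosts without one had a median fold of 4.39 and 56 tags, and 24 reached a fold of 10 (6.15%, 3.98 to 9.02%).

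Within the same gene, the intronic peak and the peak at the start were about equally often the higher by fold, but not by score. Among the 286 hosts with a start peak and exactly 1 intronic peak, the intronic fold was the higher in 142 (49.7%, 43.7 to 55.6%) and the intronic score in 85 (29.7%, 24.5 to 35.4%). The largest gaps were in the strong hosts, which are chosen by a high intronic fold, so this order follows largely from that choice. Pias4 had a fold of 28.2 in its intron and 3.83 at its start, Ptk2b 26.1 and 2.71, and Ppp2r5c 24.2 and 3.50. In the opposite order the gaps were smaller, and the largest was in Snn, with 3.96 in its intron and 19.4 at its start, followed by Wasf2 (3.11 and 15.0) and Vgll4 (5.04 and 16.3). These 3 genes were chosen after their values were seen. Arid1b had at most 10.4 in its introns and 14.9 at its start. For Arid1a the values were 10.9 and 10.4.

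**Figure D4:**
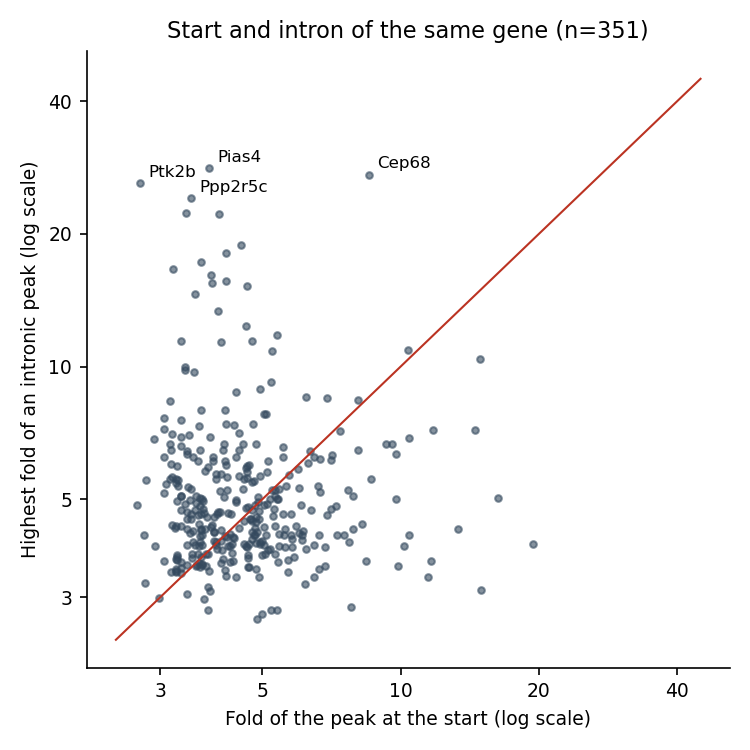
For each of the 351 hosts with a peak within 500 bp of a start, the highest fold among its intronic peaks is plotted against the fold of the highest-scoring start peak (both log scales), with a line of equality in red. Points lie on both sides of the line, and the 4 named hosts with the highest intronic folds lie far above it.

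Most gene lists held intronic peaks in a larger part of their members than protein-coding genes in general (3.16%). The shares were largest for the lists of chromatin, of B cells and of survival. The 3.16% is not matched for length: among listed genes, 11.2% were hosts at 50 to 100 kb and 20.9% at 100 to 200 kb. The lists were also chosen with earlier results of these data known. The lists, 15 in number with 338 different genes, were described by counts alone, with no test of a list. In all, 47 of the 338 genes (13.9%) were hosts.

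Of 24 B-lineage transcription factor genes, 7 were hosts (29.2%, 12.6 to 51.1%), with 15 peaks and a median fold of 4.33. The listed members had a median length of 105 kb. The strongest peak lay in Ikzf3, which encodes the Ikaros relative Aiolos (mm9 chr11:98358278-98359296). Its fold was 19.2, with 176 tags (151 to 204), 48.0 kb inside the gene, and Ikzf3 had no peak at its start. Tcf4, which encodes the E protein E2-2, had 3 intronic peaks with 57, 99 and 38 tags and folds of 6.32, 4.85 and 5.19, against 9.79 at its start. Besides Foxp1, the other hosts were Ebf1, Erg, Mef2c and Ets1, at highest folds of 4.33, 4.95, 3.89 and 4.09. Ebf1 encodes a master regulator of the B lineage. Of the 7 hosts, Ikzf3, Ebf1, Erg and Mef2c had no peak within 500 bp of a start. Such a peak was found in only 50.9% of all 689 hosts, so this is no trait of the list.

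Of 27 pre-BCR, B-cell surface and signalling genes, 7 were hosts (25.9%, 11.1 to 46.3%), with 11 peaks and a median fold of 5.03. Listed members had a median length of 11.3 kb, while the hosts had one of 111 kb. Pik3ap1, which encodes the PI3K adaptor BCAP, had the strongest peak, with 104 tags (85.0 to 126) and a fold of 7.96, 39.4 kb inside. Inpp5d, encoding the lipid phosphatase SHIP1, had 3 peaks of 115, 66 and 51 tags. Ptprc, encoding the CD45 phosphatase, had 2 adjacent peaks 0.117 kb apart with 46 and 58 tags. Lyn, Cd24a, Prkcb and Rag1 were the others.

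Chromatin regulator genes were hosts in 10 of 30 cases (33.3%, 17.3 to 52.8%), with 14 peaks, a median fold of 4.83 and a median member length of 80.3 kb. Kdm6b, which encodes an H3K27 demethylase, had the highest score of them, 578.6, with 276 tags (244 to 311) in a wide peak of 3026 bp, the widest of all intronic peaks, at a fold of only 5.45. Arid1a and Arid1b encode alternative subunits of the BAF remodelling complex. Arid1a had peaks of 135 and 59 tags (folds 10.9 and 4.79), and Arid1b had 4, of 94, 110, 48 and 65 tags (folds 10.4, 4.88, 4.60 and 5.29). The Arid1b peaks lay 96.2 to 243 kb from the start.

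Of 26 apoptosis, cell cycle and p53 genes, 6 were hosts (23.1%, 8.97 to 43.6%). The pro-apoptotic gene Bcl2l11, which encodes BIM, had 189 tags (163 to 218) and a fold of 6.14 at 782 bp inside the gene, beside its start peak of fold 7.06. Bcl2l1, which encodes the survival protein BCL-XL, had 101 tags (82.3 to 123) and a fold of 9.21 at 36.9 kb. Ccnd3, the cyclin D3 gene, had 3 peaks of 59, 71 and 42 tags spread over 35.8 kb. Cdk6, Myc and Mxi1 completed the hosts.

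The remaining lists held fewer. NF-kappaB and interferon genes were hosts in 3 of 20 cases, among them Irf2 at a fold of 4.04 and Traf5 at a fold of 3.77. Wnt and beta-catenin genes were hosts in 3 of 28 (10.7%, 2.27 to 28.2%), at similar folds: Tcf7 with 4.95, the kinase gene Gsk3b with 5.09 and the co-receptor gene Lrp5 with 5.28. Cytokine receptor and JAK-STAT genes were hosts in 2 of 23, Il2ra (fold 4.39) and Tgfbr2 (fold 5.41). In the V(D)J recombination and DNA repair list only Rad51b, a gene of homologous recombination, was a host (1 of 22). The Rad51b peak was strong, with 130 tags (109 to 154) and a fold of 15.0 at 330 kb from the start. The recombinase gene Rag1, a host as well, was counted in the pre-BCR list together with Rag2.

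None of the 28 genes in the Bcr-Abl, PI3K, mTOR and Ras-MAPK signalling list held an intronic peak (exact 95% interval 0 to 12.3%). That interval includes the 11.2% of listed genes of 50 to 100 kb that were hosts, a share over genes listed for a peak only. Of the 28 genes, 25 were so listed. The zero holds for this list and not for the pathways, since the PI3K adaptor gene Pik3ap1, counted in the pre-BCR list, was a host. Listed members of the signalling list had a median length of 74.8 kb, close to that of the chromatin list. A peak within 500 bp of a start was found in 23 of the 28 genes, and in 25 of 30 of the chromatin list. Over all protein-coding genes this share was 29.7%, and among listed genes of 50 to 100 kb it was 71.0%. No myeloid (0 of 16, interval up to 20.6%), erythroid and megakaryocyte (0 of 14, up to 23.2%) or hepatocyte gene (0 of 15, up to 21.8%) was a host. Lengths were in hand for only 7, 6 and 3 of these genes, those listed for a peak. Of 20 T-lineage genes, Zap70 (fold 4.73) and Tcf7 were hosts. Of 20 very large neuronal and adhesion genes, 2 were hosts (10%, 1.23 to 31.7%), among them Magi2 (fold 5.04), and only 4 of the 20 were listed for any peak.

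**Figure D5:**
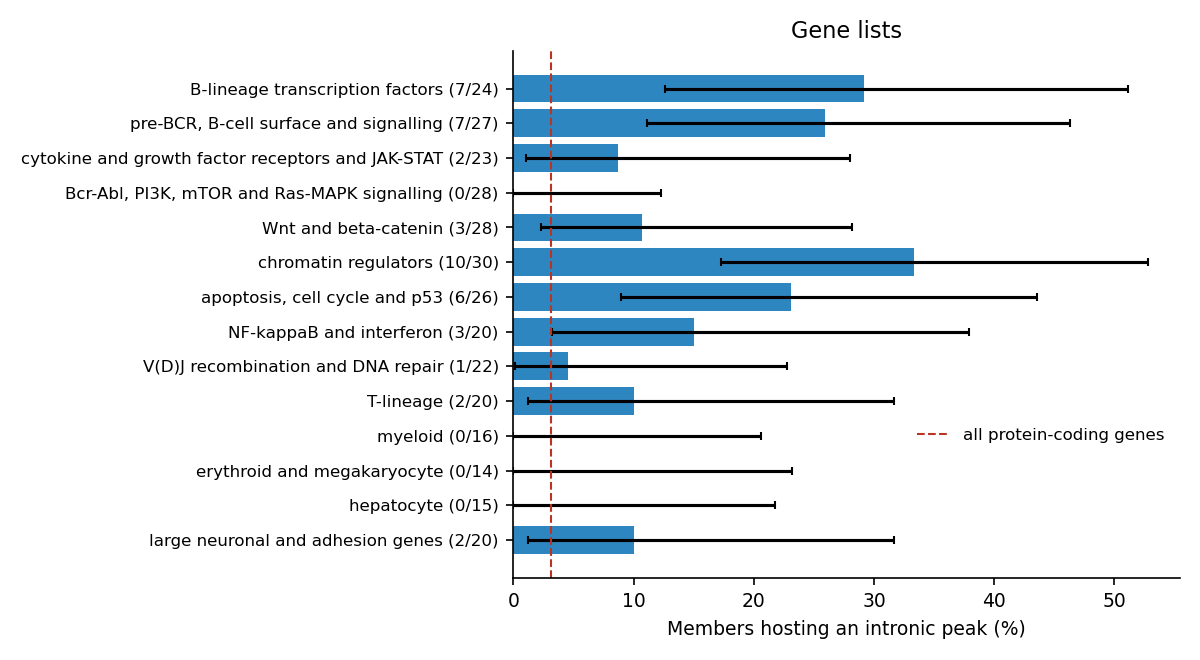
Percent of members of 14 gene lists that host an intronic peak (bar) with exact 95% interval (line) and counts beside the names, and the share of all protein-coding genes, 3.16%, as a dashed red line. The bars run from 0 in 4 lists to 33.3% for chromatin regulators, and the intervals are wide because each list has 14 to 30 genes.

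The intronic share was similar across chromosomes, within wide intervals. It ran from 7.32% of peaks on chromosome 15 (4.84 to 10.5%) to 12.1% on chromosome 14 (8.64 to 16.4%), and the interval of every chromosome included the share of the whole list. By number, strong intronic peaks were most on chromosome 5 (6 of 58) and chromosome 14 (5 of 36), against 5.71% of all intronic peaks. By share, chromosomes 18 (3 of 26) and X (2 of 10) also lay above chromosome 5. There were none among the 47, 26 and 30 on chromosomes 1, 15 and 16. These counts are too small to set chromosomes apart.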

How the data were processed

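The tools were Bowtie 0.12.8 and MACS 1.4.2 on mm9, per the submitters' processing notes, which give no parameters. Use of the input as a control is not stated in them. The deposited tag number is a raw count of reads per peak, the deposited fold is a linear ratio to the caller's background, and the deposited score was taken as minus 10 log10 p, since its lower limit of 50 matches a threshold of 1e-05. Other deposited columns hold positions and distances in bp. Library depth is unknown and nothing was scaled to it. Positions are those of the list, and whether its starts count from 0 or 1 is not stated.

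Intronic peaks were taken by the deposited class. Transcripts (15228) were matched to RefSeq gene names (GRCm38.p6): 14992 by accession, 224 by symbol and 12 not at all. No coordinate of that table was used, apart from those of the 3 promoters printed. Shares have exact Clopper-Pearson and tag counts exact Poisson 95% intervals, for counting error only. No test between groups was possible with 1 library. Members and lists were chosen with earlier results of these data known. Named genes were the 10 highest intronic peaks by score and by fold, the 5 hosts with most peaks, up to 3 members per list, the 5 nearest to and farthest from the start, Rag1, Rag2, Csnk1e and Sox4. Stricter sets of peaks, merged peaks, other windows and another host assignment were the alternatives. Genes outside that rule were chosen after their values were seen. Functions were tested on simulated data. One list and some genes are not reported here. Python 3.11.15, pandas 2.3.3, scipy 1.17.1 and matplotlib 3.10.9 were used.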

Additional observations from a re-analysis of the deposited data

How the results depend on the processing

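No paired analysis was possible because there was 1 pull-down library, and no replicate could be left out. The values depend mainly on which peaks are retained. The intronic share of 9.63% became 7.17% among the 4365 peaks with the higher scores, 12.5% among peaks of fold 10 or more and 8.96% without the peaks within 1 kb of a start. Among the higher-scoring peaks the median fold was 5.90, the median tags 84, the median width 924 bp and the share with a fold of 10 or more 15.3%. They lay in 281 hosts, 8.54% of them with 2 or more peaks and 22 of them list members. Among peaks of fold 5 or more, the median score was 151, the median tags 73, the width 837 bp, the share within 10 kb of the start 34.7%, the hosts 274, those with 2 or more peaks 6.57% and the list members 23. Among peaks of fold 10 or more these were a score of 566, 150 tags, 1002 bp, 48 hosts, 0% with 2 or more peaks and 4 list members. These sets are smaller by construction. The share near the start was 35.1% with peaks under 2 kb apart counted once, 33.6% without peaks within 1 kb of a start, 27.6% for a window of 5 kb and 57.8% for 25 kb. Tags per kb had a median of 71.8. With hosts taken as any listed gene around the peak there were 699 hosts, 15.6% with 2 or more peaks, and 47 list members. Unknown depth and the missing replicate limit the precision of every value.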

Other observations

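The following hosts were chosen after their values were seen. Zcchc7, the neighbour of the B-cell identity gene Pax5 on chromosome 4, held 3 intronic peaks (mm9 chr4:44853779-44854511, chr4:44892826-44893807 and chr4:44898852-44899520). They had 61, 91 and 47 tags, folds of 6.59, 6.54 and 5.15 and scores of 114, 207 and 83.8. They lay 84.3, 123 and 129 kb from the Zcchc7 start, and 136, 175 and 181 kb from the only peak of the list that names Pax5 (159 tags, fold 4.20). Pax5 is not listed for the Zcchc7 peaks, because genes were listed up to 25 kb away only, and no link between them and Pax5 was measured.

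Some of the other strong intronic peaks lay in regulators of transcription. Zfp521 had a fold of 16.2 (147 tags), Klf3 13.4 (123 tags), Kdm2a 12.4 (169 tags), Nfe2l2 11.4 (114 tags) and Hipk2 11.4 (138 tags), and each of these genes had a peak at its start as well. Lcp1, which encodes the leukocyte actin-bundling protein L-plastin, had a fold of 15.3 (171 tags) and no peak at its start. Genes with 3 or 4 weaker intronic peaks included Sema4d, with 41 to 46 tags in each of 4, Csk, which encodes the kinase that restrains SRC family kinases (94, 80 and 78 tags), and Smad3 of the TGF-beta pathway (97, 62 and 54 tags).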
